A study of Mus musculus with 6 samples.

Results

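The TNF superfamily is a family of trimeric ligands, most of them made as membrane proteins, and of the receptors that bind them. The genes were taken from arrays of pulsed radiofrequency (PRF) treated and untreated astrocytes by name: every probe whose transcript maps to a symbol that begins with Tnfrsf or Tnfsf, and those of Tnf, Lta, Ltb, Ltbr, Fasl, Cd40, Cd40lg, Cd70 and Cd27, with Tnfrsf10b left out. This gave 52 probes for 39 genes, 17 ligands and 22 receptors, among 56605 probes and 22911 named genes. RNA came from C8D1A cells, a cloned mouse astrocyte line, and was read on 6 one-colour arrays, 3 from cells given PRF and 3 from untreated control cells. PRF is an electrical stimulation in short high-frequency bursts that is used against neuropathic pain, and the comparison asks how it changes gene expression in astrocytes. Both groups had been grown for 6 days with 10% serum and then for 24 h without serum. The sources used here state neither the settings of the stimulation nor the time to harvest. The line is 1 clone, and each group rests on 3 independent experiments.

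Ligand binding draws adaptor proteins to the tail of the receptor. Receptors with a death domain recruit TRADD or FADD and can switch on caspases, while others bind TRAF proteins and pass the signal to NF-kB and MAP kinases. Decoy receptors lack a working tail and bind ligand without passing on a signal. In the nervous system, TNF and its receptors are best known from glial inflammation, synaptic scaling and chronic pain, and many other members from lymphocytes.

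Levels are log2 signals relative to the 75th percentile of each array, so that 0 marks this percentile. A difference is the PRF mean minus the control mean on this scale, tested with limma, and p-values were adjusted over all 34838 tested probes with a threshold of 0.05. A probe is called detected on an array where the scanner software marks its signal as well above background, and probes detected on all 3 arrays of either group were tested. A gene was read from its probe with the highest mean. Between 35145 and 36191 probes were detected on the PRF arrays and between 33670 and 34642 on the control arrays. Of 11 astrocyte markers, 9 were detected on all 6 arrays, while Gja1 and Slc1a3, which encode the main astrocyte connexin and a glutamate transporter, were detected on none. All 5 oligodendrocyte markers were detected throughout, among them Sox10, at a mean level of 5.84 in PRF cells and 6.20 in control cells. Of 9 microglial or macrophage markers 4 were, and Aif1, Ptprc, P2ry12, Cx3cr1 and Adgre1 were detected on no array. Levels of each list were also summed per array, on the linear scale relative to the 75th percentile. Microglial or macrophage sums ran from 18.7 to 23.6 on the PRF arrays and from 13.0 to 14.1 on the control arrays. Astrocyte sums (184.7 to 190.1 against 161.9 to 174.6) and endothelial sums (0.176 to 0.209 against 0.138 to 0.144) were also higher after PRF. Such sums are carried by few genes. Vim and S100b, the brightest astrocyte markers, differed by 0.16 and 0.13 and did not pass, and Glul (0.29) did. Itgam, the brightest microglial marker, rose by 0.86, while Tmem119 differed by -0.25 and did not pass. In the endothelial list Kdr, detected on no control array, rose by 3.41, and Pecam1 differed by -0.09 and did not pass. Fibroblast, neuron and oligodendrocyte sums overlapped between the groups. Markers of other cell types that passed were Itgam, Cd3d, Snap25, Kdr, Col1a1, Col1a2 and Mbp, higher after PRF, and Pdgfrb, Mog and Sox10, lower. Their part in the changes given here was not tested.

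Ltb, which encodes the membrane-bound lymphotoxin beta, was the gene of the family with the largest change, 9.35-fold higher after PRF. Tnfrsf26, Tnfsf15, Tnfrsf19 and Lta were between 2.85-fold and 2.04-fold higher, Tnfrsf12a 1.78-fold, Tnfrsf23 1.70-fold and Tnfrsf9 1.30-fold. Tnfrsf1b, the type II TNF receptor, was 1.56-fold lower and Tnfsf9 1.19-fold lower. The other 16 tested genes did not pass, among them Tnf itself and its receptor gene Tnfrsf1a.

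Of the 39 genes, 26 were tested, 8 ligands and 18 receptors. Among the tested genes 8 were higher and 2 were lower, where 16.4% of all 15069 tested genes on the array were higher and 13.4% lower. The median difference of the 26 genes was 0.02, against -0.01 over all tested genes. Since a gene that is dim in one group was tested only if bright in the other, the count over genes detected on all 6 arrays is given too. Of 23 such genes 6 were higher and 2 lower, where 12.6% of 14047 genes were higher and 14.2% lower. The 2 groups did not overlap for 11 of the 26 genes, a state that 51.1% of all tested genes shared. At least a 2-fold rise was called for 5 of the 26 genes, against 8.06% of all tested genes. Among these are Lta and Tnfrsf26, which were tested through the PRF group alone. Of the 23 genes detected on all 6 arrays such a rise was called for 3, and the share over all genes so detected was not counted. Over all tested probes, 18.5% were higher and 12.6% lower.

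The remaining 13 genes were not tested. No probe of Fasl, Cd40lg, Cd70, Tnfsf4, Tnfsf10, Tnfsf11, Tnfsf14 or Tnfsf18 was detected on any array, and these are 8 of the 17 ligand genes. Among the receptor genes this held for 4 of 22, Cd27, Tnfrsf8, Tnfrsf17 and Tnfrsf18. Tnfsf8, which encodes the CD30 ligand, was detected on 1 PRF array and on no control array. Low signal on an array does not show that a transcript is missing.

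**Figure D1:**
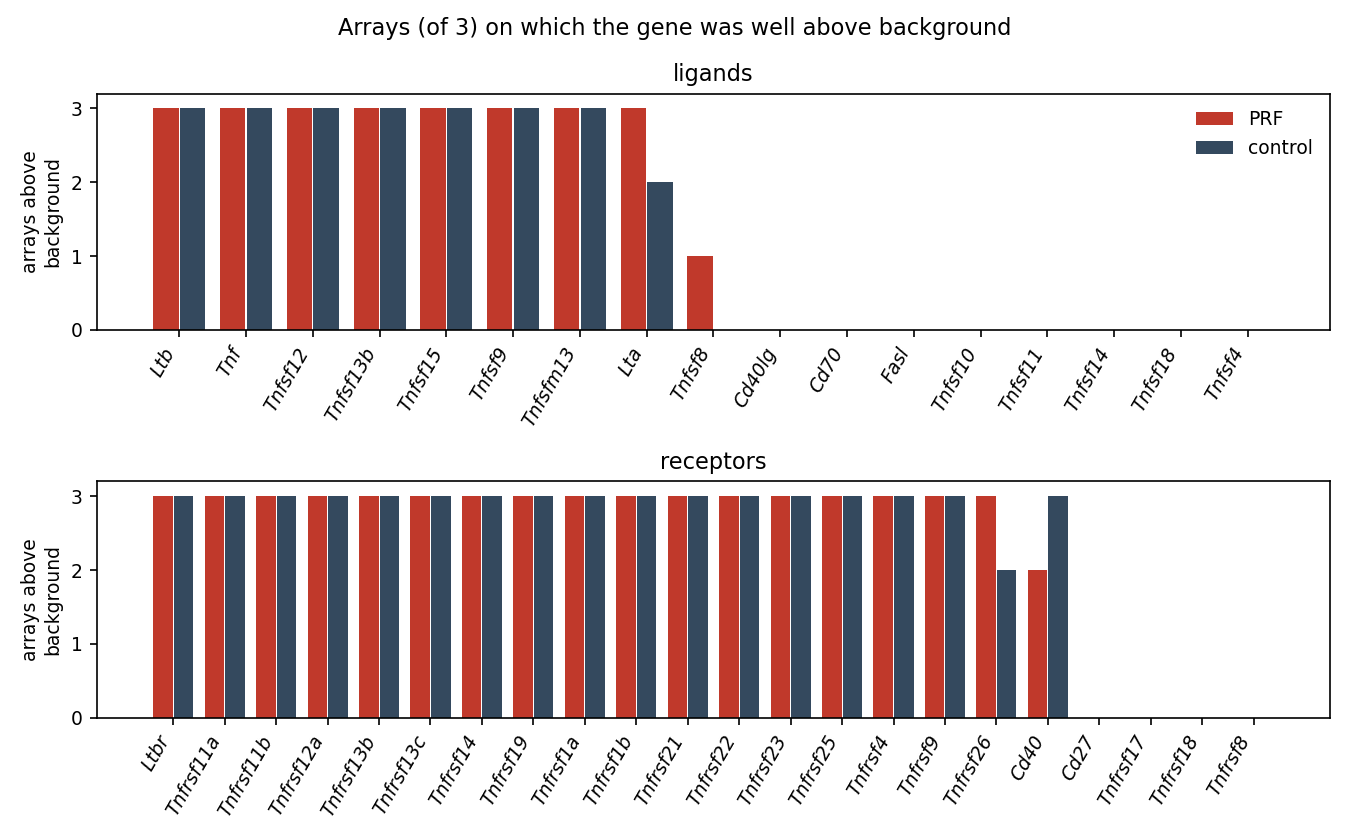
Number of arrays, of 3 in each group, on which each of the 17 ligand genes (upper panel) and 22 receptor genes (lower panel) was detected, by its best probe. PRF bars stand left of control bars. Most receptor genes reach 3 in both groups, while 8 ligand genes have no bar.

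Ltb, Tnf and Lta lie side by side on chromosome 17 with no protein-coding gene between them, per the RefSeq gene table of GRCm38.p6. Lymphotoxin beta joins lymphotoxin alpha, the product of Lta, in a membrane trimer that binds the lymphotoxin beta receptor. Lymphotoxin alpha alone is secreted and binds the same receptors as TNF. The 250 bases before each gene's start are shown because the cluster holds Ltb, the member with the largest change. Differences between the changes of the 3 genes were not tested. They come from the RefSeq promoter table of GRCm38.p6, at chr17:35194257-35194506 on the plus strand for Ltb, chr17:35202008-35202257 on the minus strand for Tnf and chr17:35205352-35205601 on the minus strand for Lta. Capitals mark the letters that match a motif of the search described with the promoters.
Ltb: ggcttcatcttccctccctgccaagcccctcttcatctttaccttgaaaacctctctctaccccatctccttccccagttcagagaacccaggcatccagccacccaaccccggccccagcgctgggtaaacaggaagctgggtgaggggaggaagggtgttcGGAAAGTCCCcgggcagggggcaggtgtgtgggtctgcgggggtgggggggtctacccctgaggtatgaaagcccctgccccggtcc
Tnf: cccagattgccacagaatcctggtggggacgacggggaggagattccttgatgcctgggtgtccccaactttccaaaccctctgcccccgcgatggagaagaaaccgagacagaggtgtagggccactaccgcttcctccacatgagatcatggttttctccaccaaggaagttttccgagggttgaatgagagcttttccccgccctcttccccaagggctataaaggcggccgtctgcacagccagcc
Lta: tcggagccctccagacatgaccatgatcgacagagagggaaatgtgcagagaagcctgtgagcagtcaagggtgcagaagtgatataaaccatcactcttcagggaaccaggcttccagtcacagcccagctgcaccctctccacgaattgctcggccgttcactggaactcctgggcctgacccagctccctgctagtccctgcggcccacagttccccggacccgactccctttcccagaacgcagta

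Ltb had levels of -0.70, -1.26 and -1.74 on the 3 PRF arrays, against -4.43, -4.48 and -4.47 on the control arrays. Every PRF array lay above every control array by a wide margin, and the PRF arrays were spread more than the control arrays. The difference was 3.23 (SE 0.25, adjusted p = 3.72e-04, limma). With normexp background correction it was 1.92 and still passed. Its upstream bases, given above, hold a kappaB match.

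Lta had levels of -4.29, -4.38 and -5.11 on the PRF arrays, against -6.06, -5.60 and -5.20 on the control arrays, where it was detected on 2 of 3. The groups did not overlap, but the lowest PRF array and the highest control array were close. The difference was 1.03 (SE 0.29, adjusted p = 0.0400, limma). Lta entered the test through the PRF group alone, where it is high, and its p-value does not allow for that selection. The call was lost when any array of replicate 1 or 2 was left out, with adjusted p between 0.0979 and 0.118, and with quantile normalization, where the difference was 0.58. It was also lost with no filter on dim probes (adjusted p = 0.0882), and with normexp the difference was 0.33 and passed.

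Tnf, the founding cytokine of the family, had levels of -3.49, -3.42 and -3.65 on the PRF arrays, against -3.49, -3.85 and -3.48 on the control arrays. The groups overlapped, and the difference was 0.09 with a 95% interval from -0.21 to 0.38 (adjusted p = 0.630, limma). A further probe of Tnf was detected on no array and was not tested. Its signals below detection were -6.73, -7.09 and -6.89 on the PRF arrays, against -8.15, -8.04 and -7.95 on the control arrays. The interval of Ltb, from 2.63 to 3.82, lies above that of its neighbour Tnf.

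Lymphocytes are the usual source of Ltb and Lta, and of 7 lymphocyte markers reported here 1 passed, Cd3d, with a difference of 0.76. The summed level of the 7 markers was taken on the linear scale relative to the 75th percentile. It ran from 0.97 to 1.13 on the PRF arrays and from 0.91 to 1.07 on the control arrays, ranges that overlap. Cd3e and Cd4, the brightest of the 7, made up most of this sum, so it cannot show a change of the dimmer markers. Cd3e and Cd4 were detected on all 6 arrays, at mean levels of -1.09 and -0.95 in PRF cells and -1.13 and -1.20 in control cells, and did not pass. Cd3d, Cd79a and Cd8a were detected on some arrays, and Cd3g and Ms4a1 on none. The part of lymphocytes in the rise of Ltb was not tested. In bulk RNA more cells of a type and more RNA per cell cannot be told apart.

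**Figure D2:**
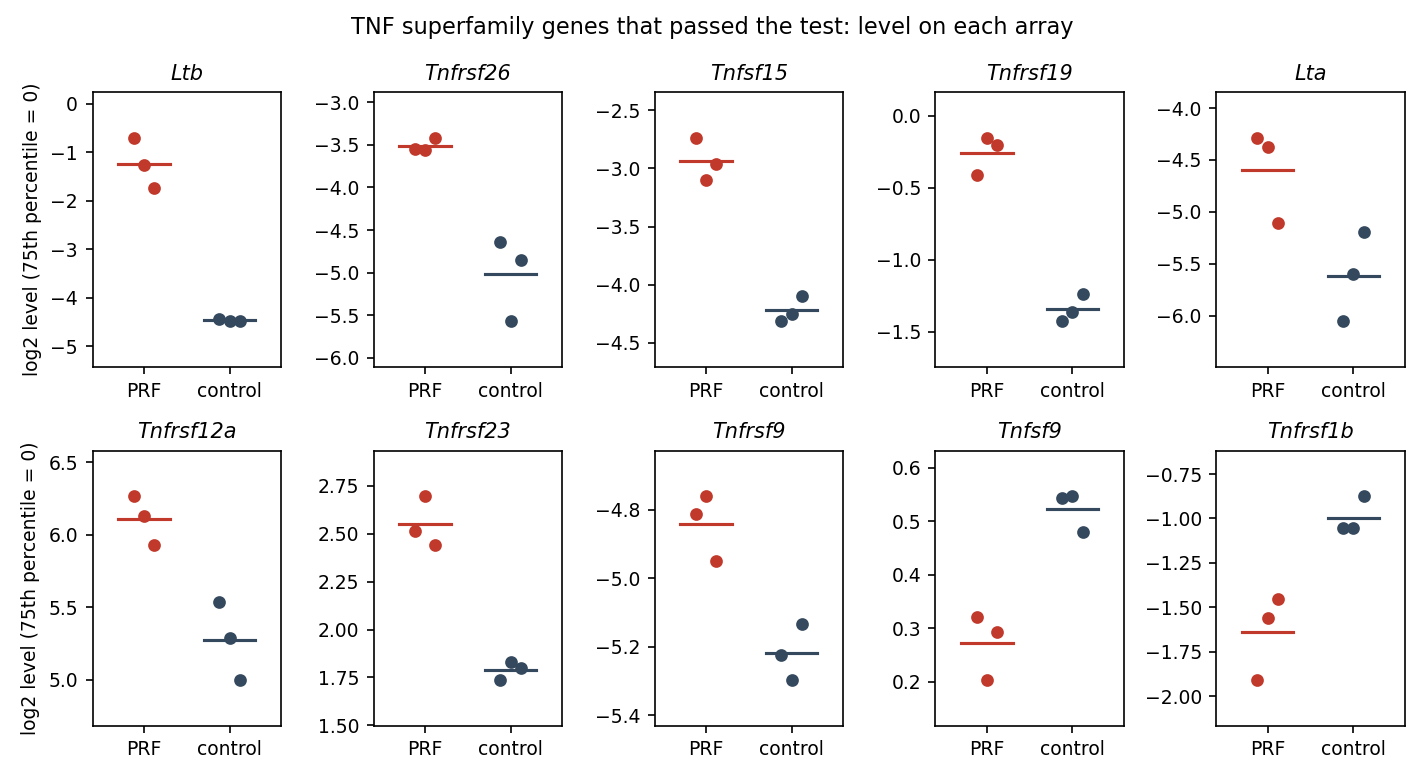
Log2 level on each array (points) and group mean (line) for the 10 genes that passed the test, PRF left of control in each panel, with a separate scale in each. No panel shows overlap between the 3 PRF and the 3 control arrays, and the gap is widest for Ltb, at a mean of -1.24 in PRF cells and -4.46 in control cells.

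Among the other ligand genes, Tnfsf15 rose and Tnfsf9 fell. Tnfsf15 encodes TL1A, the ligand of the death domain receptor made from Tnfrsf25. It had levels of -2.74, -3.10 and -2.96 on the PRF arrays, against -4.32, -4.25 and -4.09 on the control arrays. The PRF arrays were all higher, with a difference of 1.29 (SE 0.11, adjusted p = 6.30e-04, limma), which was 0.66 with normexp and still passed. A further probe of Tnfsf15 was detected on no array. Tnfsf9 encodes the 4-1BB ligand, a co-stimulator of T cells. Its levels were 0.32, 0.20 and 0.29 on the PRF arrays, against 0.54, 0.55 and 0.48 on the control arrays. The gap between the groups was narrow but clear of both spreads, and the gene fell by 0.25 (SE 0.07, adjusted p = 0.0306, limma). The fall no longer passed when any 1 of the 6 arrays was left out, with adjusted p between 0.0523 and 0.100, or with no filter on dim probes (adjusted p = 0.0601).

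Tnfsf12, Tnfsf13b and Tnfsfm13 did not pass. Tnfsf12 encodes TWEAK and averaged -1.77 ± 0.12 in PRF cells and -1.67 ± 0.10 in control cells (SD, n = 3 each). Tnfsf13b encodes BAFF, a survival factor of B cells, and averaged -3.94 ± 0.21 in PRF cells and -3.90 ± 0.12 in control cells. Tnfsfm13, a read-through transcript of the Tnfsf12 and Tnfsf13 genes, averaged -0.26 ± 0.10 in PRF cells and -0.18 ± 0.12 in control cells. The adjusted p-values of these 3 genes ran from 0.440 to 0.850, and the 95% intervals of their differences lay between -0.34 and 0.26 with this scaling. Tnfsf12 passed downward with spike-in scaling, where its difference was -0.29 (adjusted p = 0.0450), and Tnfsf13b with quantile normalization, where its difference was -0.36 (adjusted p = 0.0499).

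Among the receptors, Tnfrsf12a and Tnfrsf19 rose, both known from injured or developing nervous tissue. Tnfrsf12a encodes Fn14, the receptor for TWEAK, which injury and growth factors induce in many cell types. It had levels of 6.26, 6.13 and 5.93 on the PRF arrays, against 5.54, 5.29 and 5.00 on the control arrays. The arrays of each group were spread, yet the lowest PRF array exceeded the highest control array. The difference was 0.83 (SE 0.16, adjusted p = 0.0102, limma). Its upstream bases are shown because 2 overlapping matches to the EGR motif lie between positions -54 and -40 from the start, at chr17:23677450-23677699 on the minus strand of GRCm38.p6, with the matches in capitals.
Tnfrsf12a: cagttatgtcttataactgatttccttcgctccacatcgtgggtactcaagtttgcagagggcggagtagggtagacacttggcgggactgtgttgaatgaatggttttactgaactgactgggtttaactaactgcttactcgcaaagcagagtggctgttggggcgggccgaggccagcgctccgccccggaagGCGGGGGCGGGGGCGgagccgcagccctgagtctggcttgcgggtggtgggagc

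Tnfrsf19 encodes TROY, which in neurons can act beside the Nogo receptor. It had levels of -0.41, -0.15 and -0.20 on the PRF arrays, against -1.43, -1.37 and -1.24 on the control arrays. All 3 PRF arrays stood well above the control arrays, with a difference of 1.09 (SE 0.10, adjusted p = 6.23e-04, limma). The gene's further probe rose as well, by 0.43 (adjusted p = 0.0150).

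The members of a small gene cluster on chromosome 7 came next. Tnfrsf26, Tnfrsf22 and Tnfrsf23 are neighbours there with no protein-coding gene between them, and Tnfrsf22 and Tnfrsf23 encode mouse decoy receptors for TRAIL. Tnfrsf26 had levels of -3.55, -3.56 and -3.42 on the PRF arrays, against -4.64, -5.57 and -4.85 on the control arrays, where it was detected on 2 of 3. The control arrays were spread and the PRF arrays lay close together, with a difference of 1.51 (SE 0.23, adjusted p = 0.00496, limma). Tnfrsf26 entered the test through the PRF group alone, where it is high, and its p-value does not allow for that selection. With normexp the difference was 0.57 and still passed.

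Tnfrsf23 had levels of 2.52, 2.70 and 2.44 on the PRF arrays, against 1.74, 1.83 and 1.80 on the control arrays. The groups were clearly apart, with a difference of 0.76 (SE 0.09, adjusted p = 0.00151, limma). A further probe of Tnfrsf23 was detected on all 3 PRF arrays and on no control array. Its signal was at least 2.45-fold higher after PRF (adjusted p = 0.00137, limma), a bound set against the lowest signal counted as above background. This probe entered the test through the PRF group alone, where it is high, so its p-value is no separate support for the rise. The remaining probe was detected on no array. Tnfrsf22 had levels of -0.25, -0.05 and -0.02 on the PRF arrays, against -0.46, -0.58 and -0.14 on the control arrays. Its groups overlapped, and the difference of 0.29 had a 95% interval from -0.03 to 0.60 (adjusted p = 0.144, limma). It passed upward without control replicate 3, where the difference was 0.41. The 3 genes are related in sequence, and whether their probes bind each other's RNA was not tested.

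Tnfrsf1b was the receptor gene that fell. It encodes the TNF receptor without a death domain, which binds TRAF proteins. It had levels of -1.91, -1.56 and -1.45 on the PRF arrays, against -1.05, -1.05 and -0.88 on the control arrays. Every PRF array was lower, and the gene fell by 0.65 (SE 0.13, adjusted p = 0.0133, limma). Tnfrsf1a, the death domain receptor for TNF that most cells make, had levels of 4.03, 3.99 and 4.12 on the PRF arrays, against 4.03, 4.16 and 4.07 on the control arrays. The groups overlapped throughout, and the difference was -0.04 with a 95% interval from -0.21 to 0.13 (adjusted p = 0.717, limma). A further probe of Tnfrsf1a gave a difference of -0.09 (adjusted p = 0.502). The difference between the changes of Tnfrsf1b and Tnfrsf1a was not itself tested.

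Tnfrsf9, the 4-1BB gene, rose by a small step. It had levels of -4.81, -4.76 and -4.95 on the PRF arrays, against -5.22, -5.30 and -5.13 on the control arrays. The groups did not overlap, and the difference was 0.38 (SE 0.08, adjusted p = 0.0164, limma). The call was lost when any array of replicate 1 or 2 was left out, with adjusted p between 0.0509 and 0.0600, and with normexp (adjusted p = 0.0842), and the sign turned with quantile normalization, where the difference was -0.06. A further probe of this gene was detected on no array. Its ligand gene Tnfsf9 fell by 0.25, the opposite direction with this scaling, and that call too was lost when single arrays were left out.

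**Figure D3:**
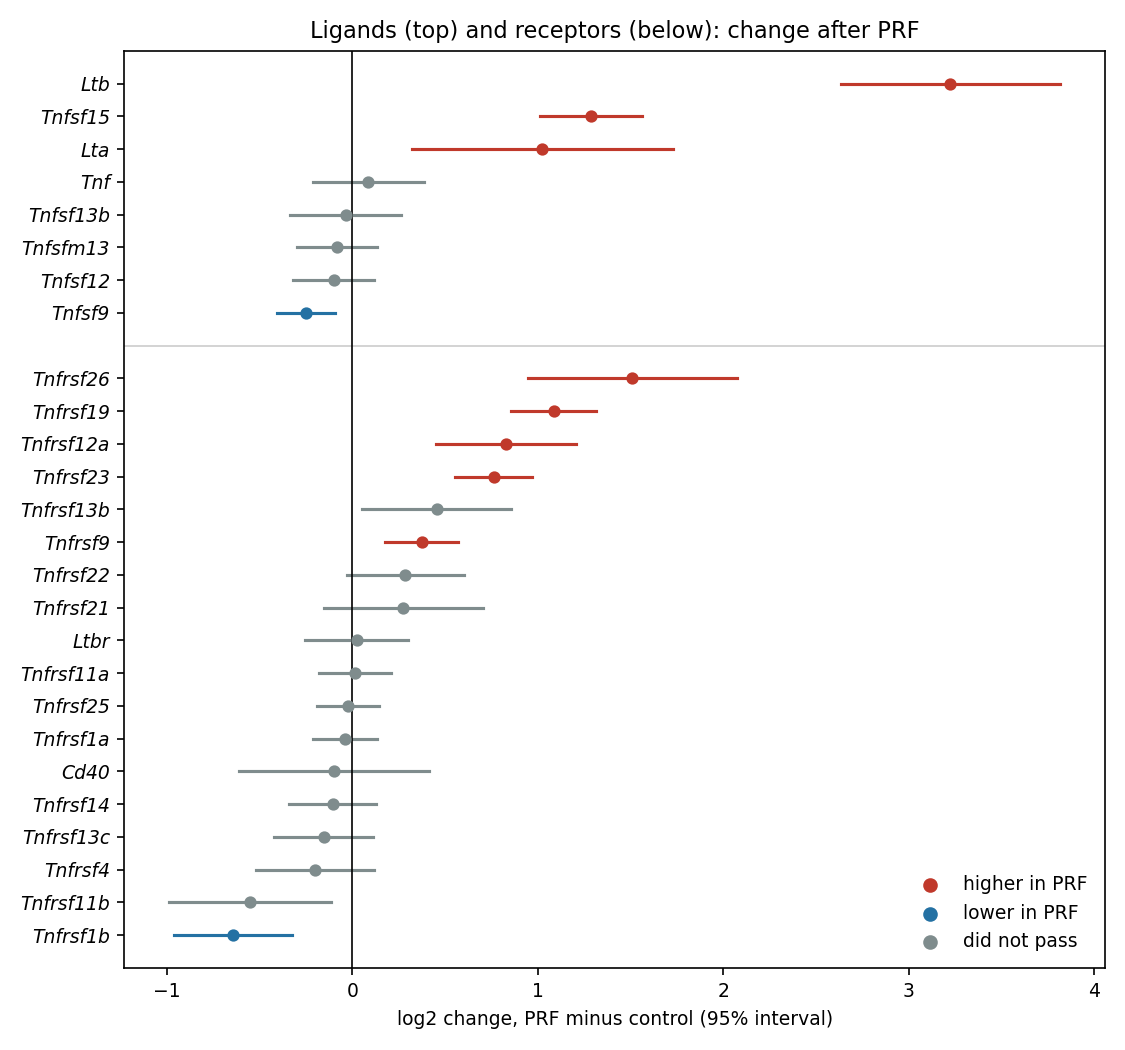
Log2 difference, PRF minus control, with its 95% interval from limma for the 26 tested genes, ligands above and receptors below the grey line. Red points passed upward, blue points passed downward and grey points did not pass. Ltb stands apart at 3.23, and the lowest point is Tnfrsf1b at -0.65.

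The other 12 tested receptor genes, Tnfrsf22 and Tnfrsf1a among them, did not pass, with differences between -0.55 and 0.46. Tnfrsf11b encodes osteoprotegerin, a soluble decoy for the RANK ligand and TRAIL. It had levels of -4.59, -4.71 and -4.20 on the PRF arrays, against -4.01, -4.17 and -3.66 on the control arrays. The PRF arrays all lay below the control arrays, but the spread within groups was large beside the difference of -0.55 (SE 0.18, adjusted p = 0.0618, limma). It passed downward under each of 4 other scalings, with differences from -0.61 to -0.91, and without PRF replicate 3. With the replicate number as a block it passed downward too (adjusted p = 0.00904, limma). With normexp the difference was -0.07 (adjusted p = 0.553).

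Tnfrsf13b, which encodes the BAFF receptor TACI, averaged -4.10 ± 0.13 in PRF cells and -4.55 ± 0.31 in control cells (SD, n = 3 each, adjusted p = 0.0846, limma). It passed upward with normexp, where the difference was 0.24, and without control replicate 1, where it was 0.63. Tnfrsf21, a death domain receptor of neurons and glia, averaged -3.66 ± 0.35 in PRF cells and -3.93 ± 0.11 in control cells (adjusted p = 0.279). It passed upward with normexp and without PRF replicate 3, whose level of -4.06 was the lowest of the 6 arrays.

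The remaining receptor genes differed little. Ltbr, the receptor of the lymphotoxin trimer, had levels of 3.05, 2.94 and 3.09 on the PRF arrays, against 2.88, 3.24 and 2.89 on the control arrays, with a 95% interval of the difference from -0.25 to 0.30. Tnfrsf25, the TL1A receptor, averaged -0.81 ± 0.08 in PRF cells and -0.78 ± 0.03 in control cells (SD, n = 3 each), with an interval from -0.19 to 0.14. Tnfrsf11a, the receptor RANK, had an interval from -0.18 to 0.21. With this scaling these 3 intervals lay between -0.25 and 0.30. With spike-in scaling the differences of Ltbr, Tnfrsf25 and Tnfrsf11a were -0.16, -0.21 and -0.17 and did not pass. The median of all tested genes was -0.19 there.

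Tnfrsf4, the OX40 gene, averaged -0.93 ± 0.19 in PRF cells and -0.73 ± 0.17 in control cells (SD, n = 3 each). Tnfrsf13c, the BAFF receptor gene, averaged -1.46 ± 0.20 in PRF cells and -1.30 ± 0.04 in control cells. Tnfrsf14, which encodes the herpesvirus entry mediator, averaged -4.27 ± 0.03 in PRF cells and -4.16 ± 0.17 in control cells. Cd40, a co-stimulatory receptor of antigen-presenting cells, averaged -5.39 ± 0.42 in PRF cells, where it was detected on 2 of 3 arrays, and -5.29 ± 0.15 in control cells. Adjusted p-values of these 4 genes ran from 0.289 to 0.757 with limma. Each of the 4 passed downward under 1 or 2 of the other scalings.

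Rises were common among dim genes in general. Of 2005 tested genes with a mean level under -4, 42.8% were higher and 4.34% lower, and of the 1030 among them that were detected on all 6 arrays, 20.1% and 5.53%. Lta, Tnfrsf9 and Tnfrsf26 fall in this range, as do Cd40, Tnfrsf11b, Tnfrsf13b and Tnfrsf14. Between -4 and 0, where Ltb, Tnfsf15, Tnfrsf19, Tnfrsf1b and many genes that did not pass lie, 22.5% of 4238 genes were higher and 17.1% lower. Of the 4191 among them detected on all 6 arrays, the shares were 21.6% and 17.3%. Over levels above 0, where Tnfrsf12a, Tnfrsf23 and Tnfsf9 lie, 7.43% of 8826 genes were higher and 13.7% lower. The part of this trend in the rises of the family genes was not tested.

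The 6 arrays lay on 1 slide, in 2 rows that each held both groups, 3 arrays per row. Within rows 1 and 2 the differences were 3.19 and 3.26 for Ltb, 1.25 and 0.90 for Lta, and 1.11 and 1.40 for Tnfsf15. They were 1.18 and 2.08 for Tnfrsf26, 1.18 and 1.06 for Tnfrsf19, 0.86 and 0.80 for Tnfrsf12a, and 0.93 and 0.65 for Tnfrsf23. For Tnfrsf9 they were 0.42 and 0.41, for Tnfrsf1b -0.59 and -0.63, and for Tnfsf9 -0.31 and -0.24. Since the groups of these 10 genes do not overlap, their direction within a row was fixed in advance. Row 1 held 1 PRF array and row 2 held 1 control array, and that array was assumed to vary like the others, with 5 rises that passed in row 1 and 0 in row 2. With row as a block 7 rises and both falls passed, and Lta did not (adjusted p = 0.0730, limma).

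Scaling mattered for the small changes. On the deposited scale the median of all tested genes was -0.15 and with spike-in scaling -0.19, so differences there are read against these values. Of the 10 genes, 8 passed in the same direction under all 4 other scalings. The exceptions were Lta, which missed with quantile and spike-in scaling, and Tnfrsf9, which passed with the median of the tested probes alone. With spike-in scaling 6 genes were higher and 7 lower, and with quantile normalization 6 and 6. The share of rises among all called probes was 59.4% with the 75th percentile, 29.2% with spike-in scaling, 41.6% with quantile normalization, and 38.3% on the deposited scale.

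**Figure D4:**
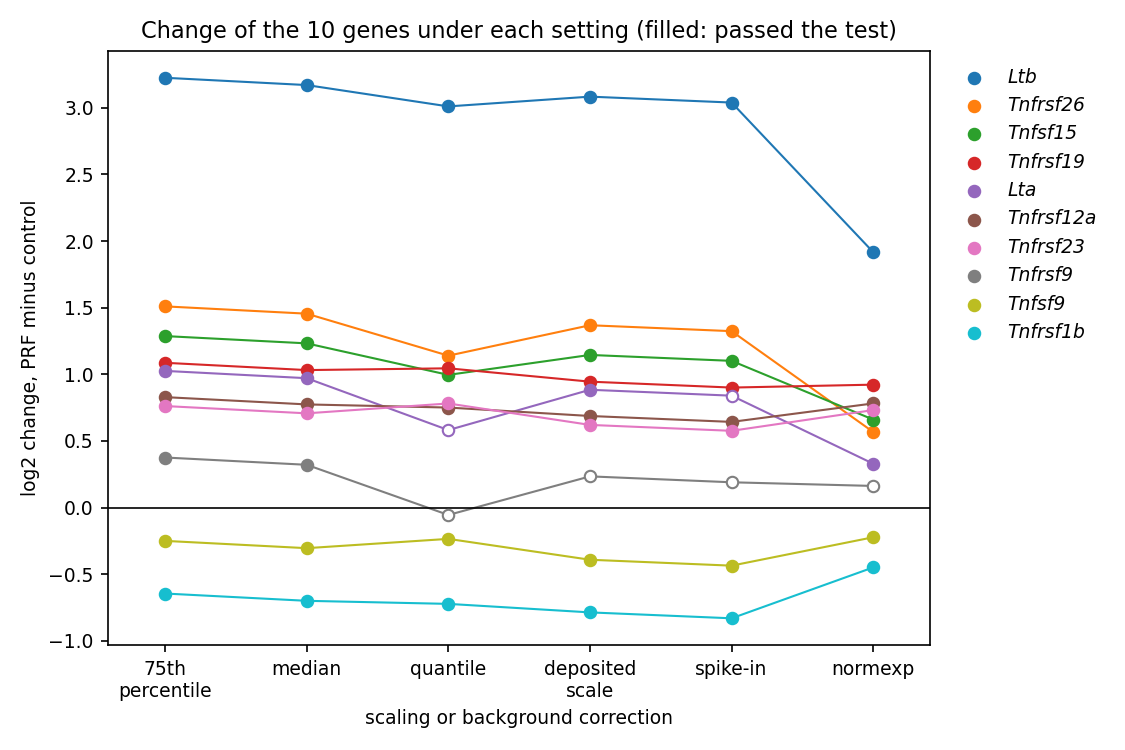
Log2 difference, PRF minus control, of the 10 genes under the 75th percentile scaling, 4 other scalings and normexp background correction. Filled points passed the test and open points did not. The lines for Ltb stay highest at every setting, from 3.23 to 1.92, and Tnfrsf9 crosses 0 with quantile normalization.

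Ligand and receptor genes were set side by side in 23 pairs known to bind. In 10 pairs both genes were tested, in 9 the receptor gene alone, in 1 the ligand gene alone and in 3 neither. Both genes passed in 2 of the 10 pairs, with opposite signs in each, Lta (1.03) with Tnfrsf1b (-0.65) and Tnfsf9 (-0.25) with Tnfrsf9 (0.38). Each of these pairs holds calls that were lost when single arrays were left out, those of Lta, Tnfsf9 and Tnfrsf9. One gene passed in 5 pairs. Tnfrsf1b fell by 0.65 beside Tnf at 0.09, and Lta rose by 1.03 beside Tnfrsf1a at -0.04. Ltb rose by 3.23 beside Ltbr at 0.02, Tnfsf15 rose by 1.29 beside Tnfrsf25 at -0.02, and Tnfrsf12a rose by 0.83 beside its ligand gene Tnfsf12 at -0.10. Tnfrsf23, a TRAIL decoy, rose by 0.76 while no probe of the TRAIL gene Tnfsf10 was detected.

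The upstream 250 bases were searched on both strands for short motifs of factors that act downstream of these receptors or of stress. They were the kappaB motif and the serum response element, each as its usual consensus, the AP-1 motif TGANTCA, the EGR motif GCGNGGGCG, the heat shock element GAANNTTC and the cAMP response element TGACGTCA. No match of one motif overlapped that of another. Of the 39 genes 30 matched the table, with 34 promoters, and 8 of the 10 that passed were among them. A kappaB match lay upstream of 4 genes, Ltb (at -87 to -78), Tnfrsf9, Tnfrsf25 and Tnfrsf8, against 7.25% of all 32851 promoters. With a narrower kappaB spelling, searched first, Ltb alone matched, against 0.356% of all promoters, and narrower spellings of the heat shock and serum response elements matched no family promoter. An AP-1 match lay upstream of Tnfrsf8, Tnfrsf9, Tnfsf13b and Tnfsf14, against 6.75% of all promoters. Tnfrsf12a was the gene with an EGR match, which 4.70% of all promoters hold. The heat shock element matched for Fasl and Tnfsf8, against 6.69% of all promoters, and the serum response element for Tnfrsf17, against 1.47%. No family promoter matched the cAMP response element, which 1.55% of all promoters hold. A match describes the letters and is not a shown binding site. Tnfrsf9 is printed as the called gene with matches to 2 motifs, 2 overlapping ones to kappaB and 1 to AP-1, from one of its starts, at chr4:150927749-150927998 on the plus strand.
Tnfrsf9: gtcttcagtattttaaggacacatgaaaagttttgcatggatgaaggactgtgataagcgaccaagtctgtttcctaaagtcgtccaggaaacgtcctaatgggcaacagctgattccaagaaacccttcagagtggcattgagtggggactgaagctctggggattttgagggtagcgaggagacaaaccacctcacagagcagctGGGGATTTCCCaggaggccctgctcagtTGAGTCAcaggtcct

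Downstream of the receptors, 39 genes for adaptors, kinases, ubiquitin enzymes and sheddases were listed, and 33 were tested. Of these 4 were higher and 5 lower, shares of 12.1% and 15.2% that lie near those of all genes detected on all 6 arrays, 12.6% and 14.2%. The median difference was -0.07. Each gene was counted by its brightest probe. Ikbkg was not called, though further probes of it passed downward. Traf7 was not called either, though a further probe, detected on no control array, passed upward. Casp8, Birc3, Mlkl, Ripk3, Map3k5 and Edaradd were detected on no array.

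Tnfaip3 and Cflar, both brakes on TNF signalling, had the largest rises of the list. Not every brake in the list rose, since Cyld, Otulin and Tnip2 did not pass and Tnip1 fell. Tnfaip3, a ubiquitin editor that ends NF-kB signalling, had levels of 0.83, 1.03 and 0.95 on the PRF arrays, against -0.47, -0.41 and -0.66 on the control arrays. The groups were far apart, with a difference of 1.45 (SE 0.09, adjusted p = 2.12e-04, limma). Cflar encodes FLIP, which blocks caspase activation at death receptors, and had levels of 3.24, 3.49 and 3.38 on the PRF arrays, against 2.52, 2.53 and 2.42 on the control arrays. It rose by 0.88 (SE 0.08, adjusted p = 9.01e-04), and its 3 further probes rose by 0.95, 0.35 and 0.86. Spata2, which ties the deubiquitinase CYLD to the receptor complex, rose by 0.53 (SE 0.07, adjusted p = 0.00279). Traf6, a ubiquitin ligase, rose by 0.33 (adjusted p = 0.0318), while its further probe gave -0.05 and did not pass. Traf6 missed with 3 of 4 other scalings and without any 1 array other than PRF replicate 1.

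The genes of the adaptors Fadd and Tradd, and of Ripk1 by 1 of its probes, fell. Fadd, the death domain adaptor that recruits caspases, had levels of 0.03, 0.02 and 0.30 on the PRF arrays, against 0.65, 0.65 and 0.83 on the control arrays. It was lower on every PRF array and fell by 0.59 (SE 0.10, adjusted p = 0.00749, limma). Tradd, the adaptor of the type I TNF receptor, averaged 2.60 ± 0.04 in PRF cells and 2.99 ± 0.04 in control cells (SD, n = 3 each), and fell by 0.39 (SE 0.06, adjusted p = 0.00551). Ripk1, a kinase of the same complex, was named after its values were seen. It fell by 0.30 (adjusted p = 0.0160), but its further probe gave 0.05 and did not pass, and the call was lost without control replicate 2 or PRF replicate 2.

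Birc2, a ubiquitin ligase that restrains cell death, fell by 0.33 (adjusted p = 0.0350, limma). Tnip1, a partner of the Tnfaip3 product, fell by 0.32 (adjusted p = 0.0233), while its further tested probe gave 0.27 and did not pass. Birc2 lost its call without any 1 array other than PRF replicate 3. Tnip1 lost it without any 1 of the control arrays or PRF replicate 1. The 5 calls became 2 or 3 when any array other than PRF replicate 3 was left out, and 9 without that one.

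**Figure D5:**
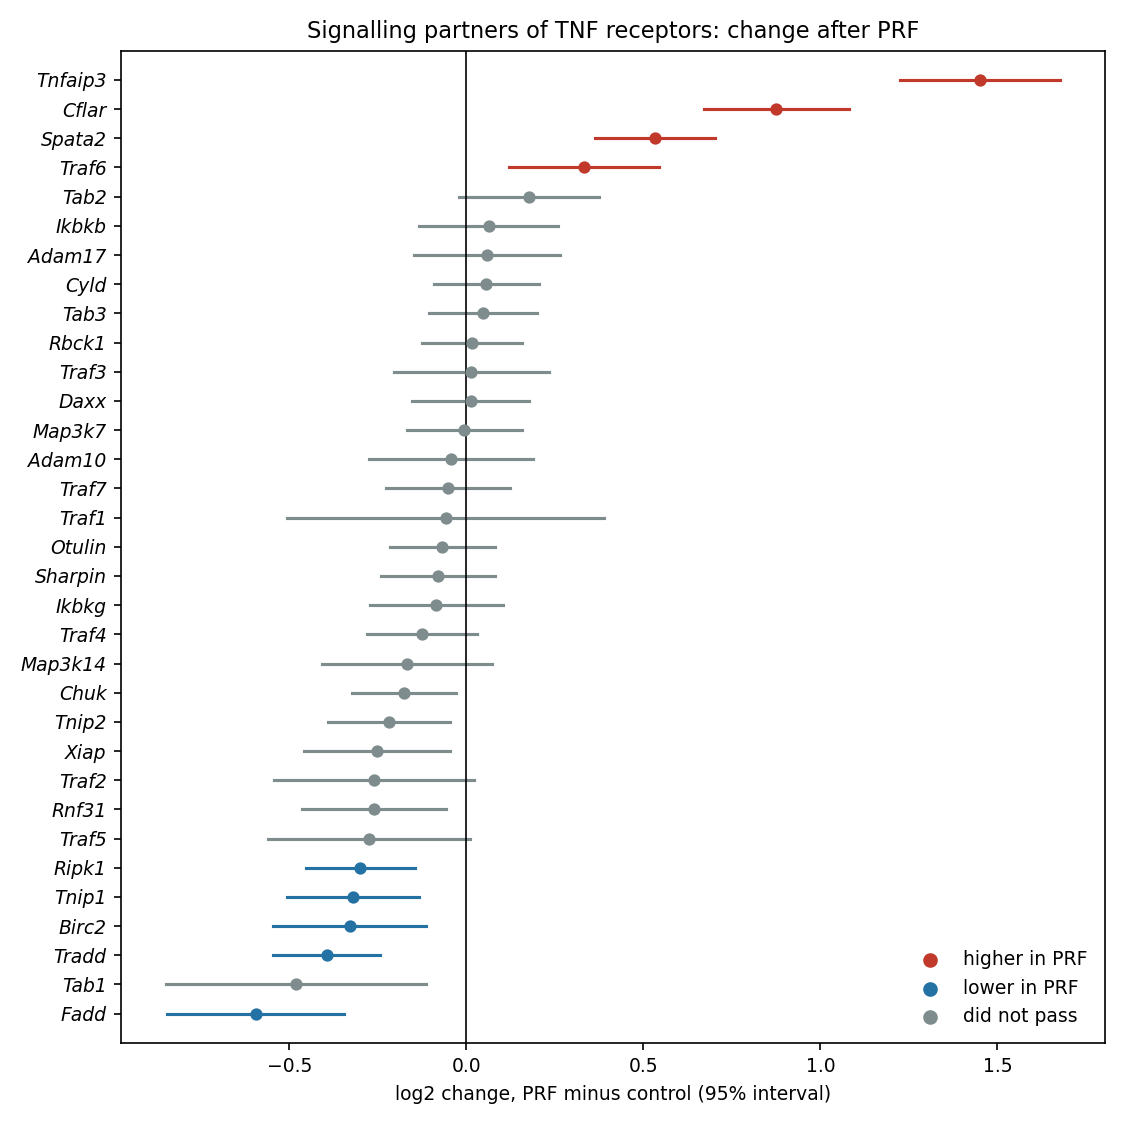
Log2 difference, PRF minus control, with its 95% interval for the 33 tested genes of TNF receptor signalling, ordered by size. Tnfaip3 at 1.45 and Cflar at 0.88 lie highest, Fadd at -0.59 lies lowest, and 24 grey points did not pass.

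Some receptors of the superfamily carry other names and were looked at apart. Fas, the death receptor for Fas ligand, averaged -0.87 ± 0.07 in PRF cells and -2.24 ± 0.24 in control cells (SD, n = 3 each). The groups were well apart, with a difference of 1.37 (SE 0.13, adjusted p = 7.52e-04, limma), and a further probe rose by 0.50. No probe of its ligand gene Fasl was detected on any array. Relt rose by 0.41 (adjusted p = 0.0128), though its 2 further probes did not pass, nor did Relt itself on the deposited scale or with spike-in scaling. Ngfr, the low-affinity neurotrophin receptor gene, averaged 6.91 ± 0.08 in PRF cells and 7.06 ± 0.06 in control cells (SD, n = 3 each, adjusted p = 0.173), and passed downward under 3 of 4 other scalings. The ligand gene Eda fell by 0.48 (adjusted p = 0.0317), by 0.05 with normexp, where it did not pass, and its call was also lost without PRF replicate 1 or 2 or control replicate 2 or 3. Eda2r did not pass. Edar was detected on no array.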

How the data were processed

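Total RNA of 3 PRF and 3 control samples of C8D1A cells, with a lowest RNA integrity number of 9.5 per the labels' protocols, was hybridised to 6 one-colour Agilent arrays. The intensity values in each deposited array file are Agilent Feature Extraction 10.7.3.1 output, per the file headers, not normalized between arrays. The authors' deposited series table holds the same processed signals: on each array 100% of 56605 probes equalled them within a relative tolerance of 0.001, with column medians of 50.0, 41.1 and 39.3 for PRF and 41.4, 36.5 and 36.3 for control. Control and outlier spots were left out, log2 signals of a probe's spots were averaged, and the 75th percentile of each array was subtracted. At most 10 probes of an array had outlier spots alone, and these were kept. One spot was saturated on 1 array. Probes were named through RefSeq transcripts (GRCm38.p6), which gave 32994 probes 1 symbol and left 23611 without. The array design uses an older build, so no gene coordinates are given apart from those of the promoter table.

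Groups were compared with limma 3.58.1 in R 4.3.3 (lmFit, eBayes, group as the only term), Benjamini-Hochberg adjusted over 34838 probes, and the fit was tested on simulated data. A bound stands where a probe was dim on all arrays of a group: it uses, per array, the higher of the probe's own signal and the lowest among detected probes. Alternatives were 4 scalings, normexp (offset 50, on median signals, since the files hold no mean signals), 2 filters, leaving out each array, replicate and row blocks, each row alone, and the mean of a gene's tested probes. Values are given for each family gene that passed or was detected on all 6 arrays, and for up to 4 rises and 4 falls among partners. Family genes, lists and motifs were chosen with earlier results of these data known. The number of arrays limits the precision. One gene of the marker lists is not reported here, and the counts and sums leave it out.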

Additional observations from a re-analysis of the deposited data

How the results depend on the processing

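Rises in the family numbered 8, and 5 and 0 within rows 1 and 2. Falls numbered 2, and 7 with spike-in scaling, 4 on the deposited scale, 6 with quantile normalization, 1 with no filter on dim probes and 0 within either row. Leaving out 1 array gave between 6 and 9 rises and between 1 and 2 falls. Partner rises numbered 4, and 2 and 0 within rows 1 and 2. Partner falls numbered 5, and 10 with the median, 18 with spike-in scaling, 9 on the deposited scale, 8 with quantile normalization, 11 with normexp, 3 with no filter, 3 with the mean of a gene's probes and 0 within either row. Leaving out 1 array gave between 3 and 4 partner rises and between 2 and 9 partner falls. Over the whole array 6430 probes were higher and 4394 lower. Higher probes numbered 4093 on the deposited scale and 2568 and 162 within rows 1 and 2. Lower probes numbered 7279 with quantile normalization, 11287 with spike-in scaling, 2796 with no filter and 494 and 2 within rows 1 and 2. Leaving out 1 array gave 4779 to 6189 higher and 2444 to 4475 lower. Tnfrsf9 turned to -0.056 with quantile normalization. The cause of these shifts was not tested. Deviations of same-numbered samples correlated at 0.14, -0.08 and 0.04, and not every sample correlated best with its own number. The numbers were not taken to pair samples in the main fit. With 3 arrays per group this check cannot exclude pairing, so the fit with a replicate block is given too. With the replicate block, 6 family genes were higher (Lta and Tnfrsf9 missed) and 2 lower (Tnfrsf1b and Tnfrsf11b, while Tnfsf9 missed with adjusted p = 0.0695), 3 partners were higher and 6 lower, and 5790 probes were higher and 3604 lower. Of the 10 called family genes, 7 passed in all 6 fits that left out 1 array. Signal over background limits the 13 untested genes.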
